A study of Homo sapiens with 6 samples.

Results

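The liver-enriched transcription factors are the DNA-binding proteins that together hold a cell in the hepatocyte state. The 8 genes described here, HNF4A, FOXA1, FOXA2, FOXA3, CEBPA, CEBPB, ONECUT1 and PROX1, were taken by gene name from a table of 29153 genes, and all 8 were found. They were measured by RNA sequencing in the established cell line HepG2, derived from a human liver tumour, after infection with lentivirus that carried a short hairpin RNA. The control group (sh-NC, 3 libraries) received a control hairpin, and the knockdown group (sh-LINC01977, 3 libraries) received a hairpin against the long noncoding RNA LINC01977. Both groups were given a lentivirus with a hairpin, and both were labelled as treated for 72 h. The study describes selection of infected cells with puromycin, and how this relates to the 72 h is not stated. No uninfected cells enter the comparison. All 3 knockdown libraries were labelled with the same hairpin, so an effect of that hairpin alone cannot be told apart from loss of LINC01977. Nothing in the labels says whether the 3 libraries of a group came from separate cultures, so the p-values measure only the spread between these libraries, which may be technical.

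HNF4A is a nuclear receptor that binds the regulatory regions of a large share of hepatocyte genes. The FOXA proteins are pioneer factors that open chromatin in liver development, CEBPA and CEBPB are basic leucine zipper factors of metabolic and acute phase genes, ONECUT1 (also called HNF6) acts in liver and bile duct development, and PROX1 is a homeobox factor needed for the migration of embryonic hepatoblasts. These factors bind each other's promoters and enhancers and form a network, which is often weakened in liver cancer. The comparison asks how the transcripts of this network differ between cells with the hairpin against LINC01977 and cells with the control hairpin.

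Total counts were between 49929024 and 60441515 per library. Of the listed genes, 13452 with a mean of at least 0.5 FPKM (fragments scaled to transcript length and sequencing depth) over the 6 libraries were tested, and all 8 factor genes were among them. LINC01977 itself had counts of 4, 0 and 16 in controls and 0, 0 and 4 after knockdown. Its difference was not detectable at this depth (exact two-sided permutation test, p = 0.7; groups of this size cannot give less than 0.1), so in these counts the groups rest on their labels. The study checked the knockdown by qRT-PCR in stable HepG2 lines, which is not analysed here. Whether that check used the cultures of these libraries is not stated. All 10 hepatocyte markers checked had a mean of at least 1 FPKM. The sum of these markers was 4954 to 5340 FPKM in sh-NC and 3703 to 3738 FPKM in sh-LINC01977 libraries, with ALB, APOA1 and AFP making up most of the drop. APOB (342 to 355 against 363 to 376 FPKM) and AHSG (456 to 475 against 484 to 543 FPKM) were higher in every sh-LINC01977 library on this scale and were not called by the test on counts (adjusted p = 0.902 and 0.476, edgeR).

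Of the 8 factor genes, 5 were lower in sh-LINC01977 cells at an adjusted p under 0.05 (edgeR's quasi-likelihood test, Benjamini-Hochberg adjustment over all tested genes) and 0 were higher. ONECUT1 fell most, by 1.58 on the log2 scale, followed by HNF4A, CEBPB, FOXA1 and CEBPA, which fell by 0.55, 0.41, 0.34 and 0.22. FOXA3 was lower in every sh-LINC01977 library but did not pass the test, and FOXA2 and PROX1 had overlapping groups. Over all tested genes, 8.07% were lower and 7.05% were higher by the same test. The 8 genes were chosen with earlier results of these data known, so this comparison is only a description. When a 2-fold change with an unadjusted P of 0.05 or less was required, only ONECUT1 of the 8 was lower, beside 1.05% of all tested genes. In CPM (counts scaled to the library total times its TMM factor), every sh-LINC01977 library lay below every sh-NC library for 6 of the 8, beside 18.3% of all tested genes. The median log2 fold change was -0.30 over the 8 genes and -0.0010 over all tested genes. With library totals in place of TMM scaling, which moved the median over all tested genes to 0.065, 3 of the 8 (ONECUT1, HNF4A and FOXA1) were lower at an adjusted p under 0.05, beside 5.71% of all tested genes. That scaling also turned the balance of calls, with 1455 genes higher and 768 lower in place of 948 higher and 1085 lower. Without the filter on low values, all of the called genes but CEBPB passed, which gives 4 of the 8, beside 2.92% of the 29153 listed genes. On leaving out 1 library, 3 to 5 of the 8 were lower, beside 4.66% to 5.49% of all tested genes.

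**Figure D1:**
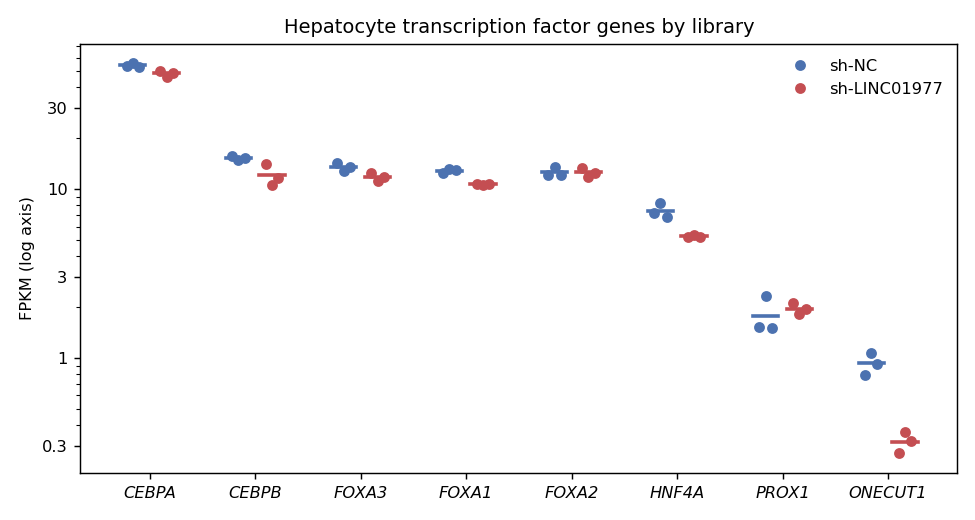
FPKM of each factor gene (log axis) in the 3 sh-NC and the 3 sh-LINC01977 libraries, with a point for each library and a bar at the group mean. The groups do not overlap for ONECUT1, HNF4A, CEBPB, FOXA1, FOXA3 and CEBPA, and they overlap for FOXA2 and PROX1.

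The 8 genes differ widely in level. On the FPKM scale, which allows a comparison between genes, CEBPA led in sh-NC cells with 53.9 ± 1.28 (SD, n = 3). CEBPB followed with 15.3 ± 0.48, then FOXA3 with 13.5 ± 0.77, FOXA1 with 12.9 ± 0.38 and FOXA2 with 12.5 ± 0.84 FPKM (SD, n = 3 each). HNF4A was at 7.41 ± 0.75, PROX1 at 1.78 ± 0.46 and ONECUT1 at 0.928 ± 0.142 FPKM. FOXA3 and FOXA1 overlapped in their ranges, as did FOXA1 and FOXA2, whereas every other pair of neighbours in the order was separate. In sh-LINC01977 cells CEBPA was still first with 48.3 ± 1.98 FPKM and HNF4A, PROX1 and ONECUT1 were still last. The middle of the order differed, with FOXA2 (12.6 ± 0.78), CEBPB (12.1 ± 1.74), FOXA3 (11.8 ± 0.62) and FOXA1 (10.7 ± 0.088) in turn. There FOXA2 overlapped with CEBPB, and CEBPB with FOXA3.

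ONECUT1 (ENSG00000169856, GRCh38 chromosome 15, 52756989 to 52791078, minus strand) has 4 transcripts listed and overlaps no other listed gene. Control libraries had 212, 256 and 263 counts of it and knockdown libraries 70, 105 and 78. In FPKM these were 0.790, 1.07 and 0.921 against 0.272, 0.364 and 0.321. The lowest control library was thus more than 2 times as high as the highest knockdown library, at a level near 1 FPKM. The log2 fold change was -1.58 (standard error 0.198, 95% interval -2.06 to -1.11, adjusted p = 0.00409, edgeR), and the exact two-sided permutation test gave p = 0.1, the smallest it can give here. Only 59 of the 13452 tested genes had a log2 fold change as low as that of ONECUT1 or lower, ONECUT1 included. Its mean over all 6 libraries was 0.6235 FPKM, above the filter only because of the sh-NC libraries. In a fit of all listed genes, which has no such filter, its log2 fold change was -1.60 (adjusted p = 0.00547, edgeR).

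HNF4A (ENSG00000101076, GRCh38 chromosome 20, 44355700 to 44434596, plus strand) was at 7.18, 8.25 and 6.82 FPKM in control libraries and at 5.22, 5.38 and 5.23 FPKM in knockdown libraries. The counts were 3648, 3734 and 3669 against 2539, 2929 and 2337. All 3 knockdown libraries lay below the controls and close to each other, with an SD of 0.089 FPKM against 0.75 in sh-NC. The log2 fold change was -0.55 (standard error 0.082, 95% interval -0.75 to -0.36, adjusted p = 0.00715, edgeR), which is 1.47-fold lower (exact two-sided permutation test, p = 0.1).

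HNF4A is known to be read from an upstream promoter, P2, and from a downstream promoter, P1, which is the one used in adult liver. The 8 listed transcripts of the gene were counted together, so the counts do not separate the promoters. The 250 bases before the RefSeq starts of HNF4A and of ONECUT1 (RefSeq, GRCh38.p14) are shown because these 2 genes had the largest decreases of the 8. The sequences are written 5′ to 3′ on the strand of the gene, and the capitals mark the only match to the motifs searched.
HNF4A, upstream start, chr20:44355449-44355698, plus strand: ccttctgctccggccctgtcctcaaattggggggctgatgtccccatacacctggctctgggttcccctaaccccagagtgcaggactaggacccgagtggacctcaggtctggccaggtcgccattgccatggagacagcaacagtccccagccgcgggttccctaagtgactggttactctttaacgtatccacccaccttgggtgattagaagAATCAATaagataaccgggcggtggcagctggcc
HNF4A, downstream start, chr20:44400989-44401238, plus strand: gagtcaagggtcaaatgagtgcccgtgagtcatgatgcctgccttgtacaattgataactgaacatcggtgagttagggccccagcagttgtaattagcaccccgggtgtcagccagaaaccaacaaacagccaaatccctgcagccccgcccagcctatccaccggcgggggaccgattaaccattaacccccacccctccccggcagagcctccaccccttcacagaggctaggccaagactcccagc
ONECUT1, chr15:52790337-52790586, minus strand: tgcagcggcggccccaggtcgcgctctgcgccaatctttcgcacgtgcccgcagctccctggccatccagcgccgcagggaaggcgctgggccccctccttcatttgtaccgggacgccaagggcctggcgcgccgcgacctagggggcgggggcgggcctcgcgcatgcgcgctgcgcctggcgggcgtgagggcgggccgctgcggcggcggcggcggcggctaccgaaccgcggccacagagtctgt

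The windows differ in base composition. Both HNF4A windows had 8 CpG dinucleotides, with 58.4% G and C at the upstream and 58% at the downstream start, at the median of 58% over 35116 windows of the reference table. The ONECUT1 window had 76.8% G and C and 37 CpG. Windows of 300 bases, 250 before and 50 after the start, were searched on both strands for CAAAGTCCA (HNF4), TGTTTAC (FOXA), TTGCGCAA and TTGCGAAA (C/EBP), ATTGATT (ONECUT) and GTTAATNAT (HNF1), where N is any base. Windows were found for 6 of the 8 factor genes, 8 windows in all, and those of FOXA2 and PROX1 were not in the table. The single match was ATTGATT on the opposite strand, 34 to 28 bases before the upstream HNF4A start, printed above as its complement. Over all windows of the table, ATTGATT occurred in 2.18%, TGTTTAC in 3.42%, GTTAATNAT in 0.792%, CAAAGTCCA in 0.384%, TTGCGAAA in 0.196% and TTGCGCAA in 0.151%. A match is a description of the letters and not a measured site.

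Inside the HNF4A interval, on the opposite strand, lies the noncoding RNA HNF4A-AS1. Control libraries had 56, 50 and 56 counts of it and knockdown libraries 3, 0 and 10, so the groups were far apart at low counts. Its mean level was 0.854 FPKM in sh-NC and 0.0699 FPKM in sh-LINC01977, below the filter over all libraries. In the fit of all listed genes the log2 fold change was -3.61 (standard error 0.88) and it did not pass the threshold (adjusted p = 0.0649, edgeR). Without the third sh-LINC01977 library it was -5.15 (adjusted p = 0.0353, edgeR), and over the alternatives, which were chosen after its values were seen, the adjusted p ranged from 2.9e-04 with DESeq2 to 0.168 with 1 library left out. The counts of HNF4A-AS1 were at most 1.54% of those of HNF4A in any library. Another antisense gene in the interval, AL117382.2, and MIR3646 on the same strand had at most 0.164% and 0.107%. Whether the counting used strand is not stated, so reads of HNF4A and of its antisense genes could be assigned to each other.

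**Figure D2:**
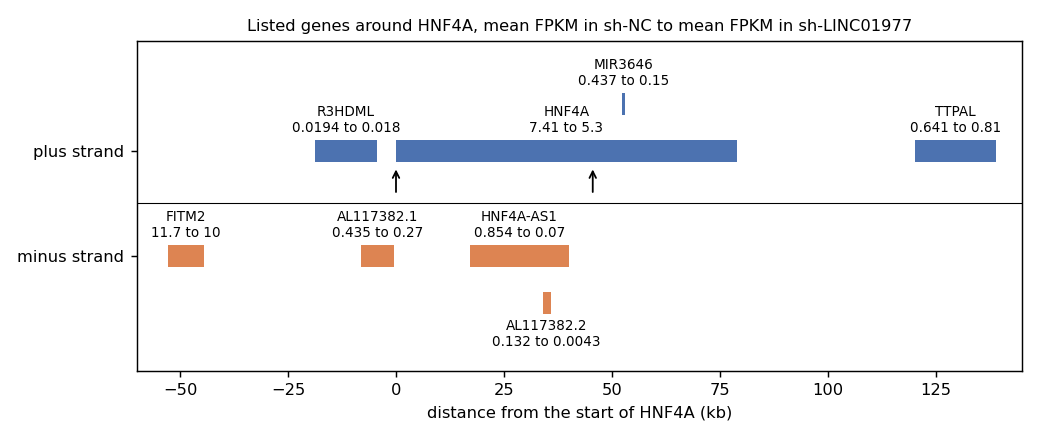
Genes listed around HNF4A, by distance from its start in kb, with plus strand genes above and minus strand genes below the line. The numbers are mean FPKM in sh-NC and then in sh-LINC01977, and the arrows mark the RefSeq starts. HNF4A went from 7.41 to 5.28 FPKM and HNF4A-AS1 from 0.854 to 0.0699 FPKM.

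Of the FOXA genes, FOXA1 fell and FOXA2 and FOXA3 did not pass the test. FOXA1 (ENSG00000129514, GRCh38 chromosome 14, 37589984 to 37596059, minus strand) was at 12.4, 13.1 and 13.0 FPKM in control libraries and at 10.7, 10.6 and 10.7 FPKM in knockdown libraries. The knockdown values were nearly equal and all below the controls. This is 1.26-fold lower, or -0.34 on the log2 scale with a standard error of 0.049 (adjusted p = 0.00705, edgeR). It shares 213 bases with TTC6 on the opposite strand, whose counts were up to 13.6% of those of FOXA1.

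FOXA3 (ENSG00000170608, GRCh38 chromosome 19, 45863989 to 45873797, plus strand) overlaps no other listed gene. It was at 14.3, 12.8 and 13.5 FPKM in sh-NC and 12.4, 11.1 and 11.8 FPKM in sh-LINC01977 libraries, lower in all 3 by a narrow margin. Its log2 fold change of -0.26 (standard error 0.075) had an adjusted p of 0.0615 in edgeR, and of 0.0264 in DESeq2. FOXA2 (ENSG00000125798, GRCh38 chromosome 20, 22581005 to 22585455, minus strand) was at 12.1, 13.5 and 12.04 FPKM in sh-NC and 13.4, 11.8 and 12.5 FPKM in sh-LINC01977 libraries, and the groups overlapped. Its log2 fold change was -0.06 with a 95% interval of -0.24 to 0.12 (adjusted p = 0.628, edgeR), and with library totals it was 0.0052. It shares sequence with AL121722.1 on the same strand, whose counts were up to 9.53% of those of FOXA2.

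LINC00261, a long noncoding RNA gene beside FOXA2 that is known to be expressed in endoderm, fell. It had counts of 745, 671 and 899 in sh-NC and 590, 588 and 391 in sh-LINC01977 libraries. On the FPKM scale the controls, at 1.93, 1.95 and 2.20, all lay above the knockdown libraries, at 1.60, 1.42 and 1.15. The log2 difference of -0.60 had a standard error of 0.145 (adjusted p = 0.0366, edgeR). This call was lost without the filter (adjusted p = 0.0622), with the replicate number as a block (0.0861), in the 3 limma settings (0.0518 to 0.0548) and on leaving out any library but the first sh-LINC01977 one (0.0674 to 0.103).

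The C/EBP genes showed small decreases that depend on the processing. CEBPA (ENSG00000245848, GRCh38 chromosome 19, 33299934 to 33302564, minus strand) was at 53.4, 55.4 and 53.0 FPKM in sh-NC and 50.2, 46.3 and 48.5 FPKM in sh-LINC01977 libraries. Its log2 fold change was -0.22 (standard error 0.046, 95% interval -0.33 to -0.11, adjusted p = 0.0230, edgeR). With library totals it was -0.16 and the call was lost (adjusted p = 0.0724, edgeR). The call was also lost without the first or second sh-NC library (adjusted p = 0.0678 and 0.0731) and without the second or the third sh-LINC01977 library (adjusted p = 0.0752 and 0.0710).

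CEBPB (ENSG00000172216, GRCh38 chromosome 20, 50190734 to 50192689, plus strand) was at 15.8, 14.8 and 15.3 FPKM in sh-NC and 14.0, 10.6 and 11.7 FPKM in sh-LINC01977 libraries. The first knockdown library was the nearest to the controls, and the knockdown libraries spread more, with an SD of 1.74 against 0.48 FPKM. The log2 fold change was -0.41 (standard error 0.108, 95% interval -0.66 to -0.15), just inside the threshold (adjusted p = 0.0499, edgeR). It was -0.52 without the first sh-LINC01977 library (adjusted p = 0.0175), and leaving out any other library ended the call (adjusted p from 0.0925 to 0.135, edgeR). CEBPB shares 765 bases with CEBPB-AS1 on the opposite strand, whose counts were up to 6.16% of those of CEBPB and whose log2 fold change was -0.02 (adjusted p = 0.993, edgeR).

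PROX1 (ENSG00000117707, GRCh38 chromosome 1, 213983181 to 214041502, plus strand) was at 1.52, 2.31 and 1.51 FPKM in control libraries and at 2.11, 1.81 and 1.94 FPKM in knockdown libraries. The second sh-NC library was the highest of all 6 and the other sh-NC libraries were the lowest. The log2 fold change was 0.07 with a 95% interval of -0.35 to 0.49 (adjusted p = 0.828, edgeR). It was 0.30 without the second sh-NC library (adjusted p = 0.129, edgeR), and it was below 0, at -0.02 and -0.04, without the first or the third sh-NC library. PROX1 overlaps PROX1-AS1 on the opposite strand, whose counts reached 45.7% of those of PROX1 and whose log2 fold change was 0.09 (adjusted p = 0.606, edgeR).

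**Figure D3:**
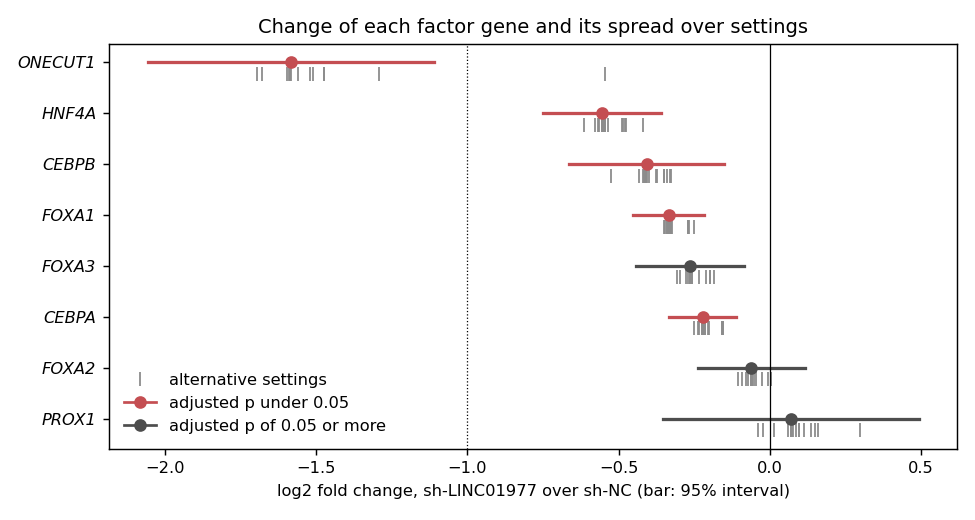
Log2 fold change of each factor gene, sh-LINC01977 over sh-NC, with its 95% interval from edgeR (point and bar) and its values under the alternative settings (grey ticks); the dotted line marks a fold change of 2. The intervals lie below 0 for all genes but FOXA2 and PROX1, and the isolated ONECUT1 tick at -0.55 is limma on log2(FPKM + 1).

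Because the factors act in combination, 6 ratios of FPKM within a library were compared. ONECUT1 over HNF4A was 0.110, 0.130 and 0.135 in sh-NC and 0.0521, 0.0677 and 0.0614 in sh-LINC01977 libraries. The ratio was lower in every knockdown library, by a mean of 1.05 on the log2 scale, so ONECUT1 was lower relative to HNF4A also. After adding 1 to each FPKM the difference was only -0.13, since ONECUT1 is near or under 1 FPKM. PROX1 over HNF4A was 0.212, 0.280 and 0.222 in sh-NC and 0.403, 0.336 and 0.372 in sh-LINC01977 libraries, higher in every knockdown library by a mean log2 difference of 0.65. FOXA1 over FOXA2 was 1.03, 0.972 and 1.08 against 0.803, 0.894 and 0.853, lower in every knockdown library with a mean log2 difference of -0.27. These 3 ratios each had p = 0.1 in the exact two-sided permutation test, the smallest possible, and 0.2 after adjustment over the 6 ratios. The groups overlapped for FOXA1 over FOXA3 (difference -0.07, p = 0.4), FOXA2 over FOXA3 (0.20, p = 0.2) and CEBPA over CEBPB (0.19, p = 0.2; exact tests).

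**Figure D4:**
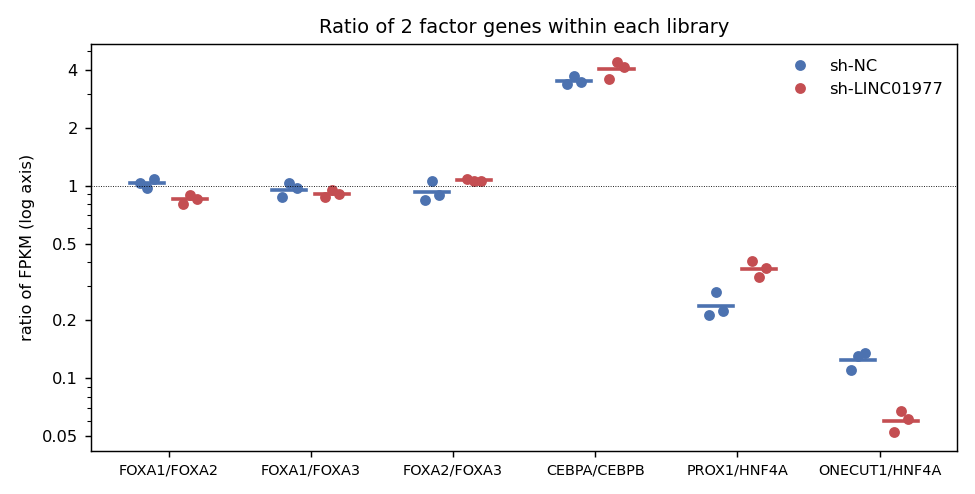
Ratio of FPKM between 2 factor genes within each library (log axis), with a point for each library and a bar at the geometric mean of the group. ONECUT1/HNF4A and FOXA1/FOXA2 are lower and PROX1/HNF4A is higher in all 3 sh-LINC01977 libraries, and the other pairs overlap between groups.

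Paralogues of the 8 genes were measured beside them, and 5 of 8 passed the filter. This and the following gene lists were written with earlier results of these data known. Their counts beside the shares of all tested genes are therefore only a description. Of these, 2 were lower and 0 were higher, beside 8.07% and 7.05% of all tested genes. The other 3 were not called, and the median log2 fold change of the 5 was -0.35. CEBPG, a C/EBP partner without a transactivation domain, was at 18.2 ± 0.57 FPKM in sh-NC and 15.02 ± 0.74 FPKM in sh-LINC01977 cells (SD, n = 3 each), with a log2 fold change of -0.34 (adjusted p = 0.00768, edgeR). DDIT3, the stress-induced C/EBP protein CHOP, went from 13.0 ± 0.32 to 10.7 ± 0.31 FPKM, a log2 fold change of -0.35 (adjusted p = 0.0256, edgeR). CEBPG kept its call in every alternative, whereas DDIT3 lost it without the filter (adjusted p = 0.0539), with the replicate number as a block (0.0685) and on leaving out any library (0.0584 to 0.0839). CEBPE, a C/EBP gene of granulocytes, was chosen after its values were seen. It had counts of 0, 0 and 2 in sh-NC and 22, 16 and 23 in sh-LINC01977 libraries, below the filter, with an adjusted p of 0.0580 in the fit of all listed genes.

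Among 24 tested of 27 other hepatocyte transcription factors, 9 were lower and 1 was higher, beside 8.07% and 7.05% of all tested genes. The other 14 were not called, and the median over the 24 was -0.29. The bile acid receptor NR1H4 (FXR) fell most, from 23.1 ± 1.74 to 8.94 ± 1.22 FPKM (SD, n = 3 each), with a log2 difference of -1.43 and a standard error of 0.102 (adjusted p = 8.7e-04, edgeR). NR0B2 (SHP), a corepressor that is a known target of NR1H4, went from 33.9 ± 0.23 to 21.99 ± 1.81 FPKM (log2 fold change -0.69, adjusted p = 0.00193). ATF5 and KLF15 were lower by 0.68 and 0.65 on the log2 scale (adjusted p = 0.00902 and 0.0171, edgeR). KLF15 lost its call with the replicate number as a block (0.0603) and without the first or the third sh-NC or the first or the second sh-LINC01977 library (0.0532 to 0.0602). TBX3, a T-box factor of hepatoblasts, was the one gene that rose, from 13.7 ± 0.44 to 17.9 ± 1.02 FPKM (log2 fold change 0.32, adjusted p = 0.0117). The number of lower genes was 5 without the first sh-LINC01977 library, beside 5.49% of all tested genes. It was also 5 with the replicate number as a block, beside 5.61%.

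Of the cofactors and regulators of these factors, 17 of 20 were tested. In this list 3 were lower and 2 were higher, beside 8.07% and 7.05% of all tested genes, and 12 were not called (median 0.00). TRIB1, a pseudokinase that directs the degradation of CEBPA protein, rose from 15.8 ± 0.34 to 21.99 ± 0.96 FPKM (log2 fold change 0.41, adjusted p = 0.00434, edgeR). The other higher gene, the Groucho corepressor TLE3, was near 1 FPKM and was named after its values were seen (log2 fold change 0.54, adjusted p = 0.0368, edgeR). TLE3 lost its call without the filter (adjusted p = 0.0763), with the replicate number as a block (0.0692) and on leaving out any library but the third sh-NC one (0.0675 to 0.106), as well as in the 3 limma settings (0.0544 to 0.0588), whereas TRIB1 kept its call in these fits. Without the third sh-NC library, 3 cofactors were higher, beside 4.97% of all tested genes. Leaving out any other library gave 1 higher cofactor, beside 4.08% to 4.63%. The Groucho corepressor TLE1 and the coactivator CREBBP fell by 0.36 and 0.39 on the log2 scale (adjusted p = 0.00748 and 0.0124, edgeR). CREBBP lost its call without the second or the third sh-LINC01977 library (adjusted p = 0.0507 and 0.0501, edgeR) and in the 3 limma settings (0.0539 to 0.0580). PPARGC1A, the coactivator PGC-1α, which binds HNF4A, was also lower. It went from 1.26 ± 0.097 to 0.647 ± 0.064 FPKM, with a log2 fold change of -1.02 (adjusted p = 0.00287, edgeR), and was named after its values were seen.

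Of 35 listed hepatocyte product genes, many of them known targets of the 8 factors, 34 were found and 26 were tested. Of the 26, 17 were lower and 2 were higher (median -0.63). The shares over all tested genes were 8.07% and 7.05%, and 7 product genes were not called. These shares were not matched for level, and several product genes had far more FPKM than the filter required. ALB, serum albumin, was at 1456 ± 71.1 FPKM in sh-NC and 713 ± 16.4 FPKM in sh-LINC01977 cells (SD, n = 3 each), which is -1.09 on the log2 scale (adjusted p = 1.75e-04, edgeR). APOC3, an apolipoprotein of triglyceride-rich particles, was lower by 1.35, and the fibrinogen chains FGB and FGG by 1.10 and 0.99 on the log2 scale (adjusted p = 0.00416, 6.9e-04 and 6.9e-04, edgeR). CPS1, the first enzyme of the urea cycle, and APOA2 were higher by 0.61 and 0.42 (adjusted p = 0.00296 and 0.00193). In a bulk measurement, fewer cells of a type and less RNA per cell cannot be told apart. The summed FPKM of the 6 biliary markers found, of 7 listed, was 500 to 553 in sh-NC and 373 to 392 in sh-LINC01977 libraries, most of it SPP1, with a mean of 447 against 309 FPKM. KRT7 went the other way at a low level, from 0.116 to 0.179 FPKM in sh-NC to 0.278 to 0.412 FPKM in sh-LINC01977 libraries. Mesenchymal markers summed to 34.3 to 36.7 FPKM in sh-NC and 29.9 to 34.4 FPKM in sh-LINC01977 libraries, and their members did not move together. SPARC was lower, with a mean of 15.1 against 8.94 FPKM, while COL1A1 (2.72 against 4.72 FPKM) and PDGFRB (0.567 against 1.64 FPKM) were higher in every sh-LINC01977 library, and COL3A1 was at or under 0.0223 FPKM. Blood markers summed to 626 to 633 FPKM in sh-NC and 544 to 559 FPKM in sh-LINC01977 libraries, nearly all of it LYZ. CD68 (10.4 against 14.8 FPKM) and CD79A (0.685 against 2.09 FPKM) were higher in every sh-LINC01977 library, and PTPRC was at or under 0.00654 FPKM. Endothelial markers summed to at most 0.441 FPKM in all 6 libraries. The part of these markers in the changes of the 8 genes was not tested.

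**Figure D5:**
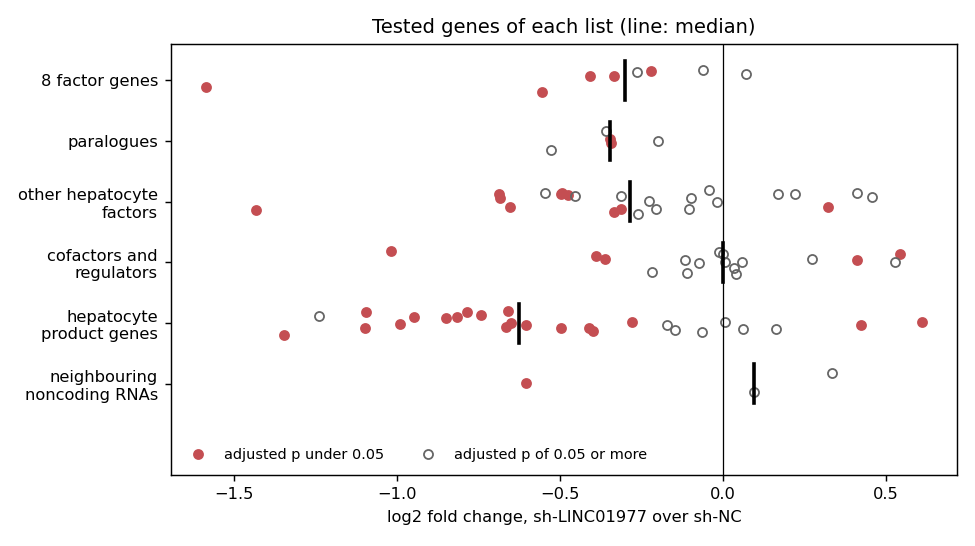
Log2 fold change, sh-LINC01977 over sh-NC, of every tested gene in each list, filled where the adjusted p was under 0.05 in edgeR, with a bar at the median of the list. The medians are -0.30 for the 8 factor genes, -0.35 for paralogues, -0.29 for other factors, 0.00 for cofactors and -0.63 for product genes.

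The other noncoding RNAs beside the 8 genes were not called. CEBPA-AS1 was at 2.51 ± 0.32 FPKM in sh-NC and 3.31 ± 0.45 FPKM in sh-LINC01977 cells (SD, n = 3 each), which is 0.33 on the log2 scale (adjusted p = 0.216, edgeR).

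Genes whose pattern over the 6 libraries was nearest to that of a called factor gene were ranked by the root mean square difference of log2 CPM deviations from the gene's own mean. For ONECUT1 these were FAM3B (0.175) and NR1H4 (0.180), and the former went from 2.74 to 1.13 FPKM. HNF4A was nearest to QSER1 (0.0288) and COL16A1 (0.0469), and FOXA1 to TTC21B (0.0145) and ATF4 (0.0155). For CEBPA they were SMCR8 (0.0117) and CAD (0.0127), and for CEBPB they were FAM222B (0.0419) and DNAJB2 (0.0419). The differences from ONECUT1 were larger than those from the other 4 genes.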

How the data were processed

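HepG2 RNA was isolated with TRIzol for Illumina HiSeq sequencing. The submitters' processing notes name hg38, bcl2fastq 2.0, HISAT2, StringTie, DESeq2 and limma, without roles. The counting tool and its use of strand are not given in the sources used here. The authors deposited whole-number counts per gene, not normalized, and FPKM values, scaled to transcript length and library total. Their annotation columns were not used as results. Libraries were grouped by their labels.

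For 13452 genes whose mean FPKM reached 0.5, counts were compared in edgeR 4.0.16 (R 4.3.3) by the quasi-likelihood test with TMM and Benjamini-Hochberg adjustment. Genes below this were read from a fit of all 29153 genes. Ratios were tested by exact permutation with SciPy 1.17.1. The edgeR script was tested on simulated data. limma 3.58.1 used log2(FPKM + 0.1), and DESeq2 1.42.0 was an alternative. The members and lists were chosen with earlier results of these data known. Genes named are the 8 members, up to 4 called genes per list and direction with the largest change and a mean of at least 1 FPKM, neighbouring noncoding RNAs, the 2 nearest patterns of each called member, and LINC01977. Outside this rule, CEBPE, TLE3, PPARGC1A, overlapping genes and cell type markers were named after their values were seen. Precision is limited by counts in low genes, such as ONECUT1.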

Additional observations from a re-analysis of the deposited data

How the results depend on the processing

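ONECUT1, HNF4A and FOXA1 were lower and passed an adjusted p of 0.05 in every alternative that gave them a value, with log2 fold changes of -1.70 to -0.55, -0.61 to -0.42 and -0.35 to -0.25. ONECUT1 was not tested with the filter at 1 FPKM. The other calls moved. CEBPA no longer passed with library totals (-0.16) and with limma on log2(FPKM + 0.1), + 1 and + 0.01 (-0.16, -0.16 and -0.16), and its range on leaving out 1 library was -0.25 to -0.20. CEBPB no longer passed without a filter, where its change was slightly larger (-0.42, adjusted p = 0.0783), with library totals (-0.34) and with limma (-0.35, -0.33 and -0.35 in the same order), and it ranged from -0.52 to -0.33 on leaving out 1 library. FOXA3 passed with DESeq2 (-0.26). FOXA2 changed sign with library totals (0.0052) and limma (0.0036, 0.0034 and 0.0037), without passing the test, and PROX1 ranged from -0.038 to 0.30 on leaving out 1 library. The number of factor genes lower at an adjusted p under 0.05 was 3 with library totals, 3 in each limma setting, 6 with DESeq2 and 3 to 5 on leaving out 1 library. The share of all genes with an adjusted p that were called lower was 5.71% with library totals, 5.37% to 5.46% with limma, 11.5% with DESeq2 and 4.66% to 5.49% on leaving out 1 library. The share called higher was 10.8% with library totals and 9.41% to 9.55% with limma. The number past a fold change of 2 was 0 with the filter at 1 FPKM and with limma on log2(FPKM + 1). Low counts limit ONECUT1, HNF4A-AS1 and CEBPE, and LINC01977 cannot be read at this depth. The alternatives for HNF4A-AS1 were added after seeing the data.

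The replicate numbers were not taken to pair the libraries, since same-numbered libraries had correlations of their deviations from the group means of only -0.03 to 0.06. With the replicate block, 1390 genes were called in place of 2033, and CEBPA no longer passed (log2 fold change -0.22, adjusted p = 0.0582, edgeR). The other 7 factor genes kept their side of the threshold.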
